A study of Mus musculus with 6 samples.

Results

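Genes of arginine metabolism, 7 of the 32285 genes in the count tables, were followed by their symbols through single cells of mouse pancreatic tumours: Arg1, Arg2, Nos2, Odc1, Slc7a2, Ass1 and Sat1. The tumours grew in C57BL/6 mice after KPC cells, a mouse pancreatic cancer line, had been injected into the pancreas. The KPC cells carried a construct for MLKL, the pore-forming effector of necroptosis (OE-MLKL), or the vector alone (OE-Vector), and the tumours were dissociated and sequenced by the 10x Genomics 3′ method. Both groups therefore share the KPC line, the host strain and a vector, and no tumour of unmodified KPC cells was part of the comparison. Count matrices of 4 libraries were analysed: 1 OE-Vector library and 3 OE-MLKL libraries. OE-Vector 2 and OE-Vector 3 were not analysed here. With 1 library against 3, the exact permutation test cannot go below p = 0.25, and the spread in every group comparison comes from the OE-MLKL libraries alone.

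Arginine enters myeloid cells through cationic amino acid transporters such as the Slc7a2 product. Inside the cell it can be split by arginase into urea and ornithine or oxidised by inducible nitric oxide synthase into nitric oxide and citrulline. Arg1 encodes the cytosolic arginase and Arg2 the mitochondrial one, and Nos2 encodes the inducible synthase. Macrophages in culture are often sorted into Arg1-expressing and Nos2-expressing activation states, whereas tumour macrophages can carry features of both. Ass1, argininosuccinate synthase, turns citrulline back towards arginine. Odc1, ornithine decarboxylase, is the entry to the polyamines, and Sat1 acetylates spermidine and spermine so that they can be broken down or exported.

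On the mm10 (GRCm38) assembly with GENCODE annotation, Arg1 (ENSMUSG00000019987) spans chromosome 10, 24915221 to 24927484, on the minus strand. Nos2 (ENSMUSG00000020826) spans chromosome 11, 78920787 to 78960254, on the plus strand. Arg2 (ENSMUSG00000021125) spans chromosome 12, 79130777 to 79156301, on the plus strand, where Vti1b and Gm48780 overlap it on the other strand. Odc1 (ENSMUSG00000011179) also lies on chromosome 12, 17544794 to 17551505, on the plus strand, where Gm22748 overlaps it on the same strand. Slc7a2 (ENSMUSG00000031596) spans chromosome 8, 40862396 to 40922308, plus strand, with Gm26584 on the other strand, and Ass1 (ENSMUSG00000076441) chromosome 2, 31470207 to 31520672, plus strand. Sat1 (ENSMUSG00000025283) spans chromosome X, 155213132 to 155216449, on the minus strand. The counts are whole-gene counts of the 3′ ends of transcripts, so exons were not told apart.

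The libraries held 150591289 to 169978362 UMIs (unique molecular identifiers, one per captured transcript) over all barcodes, and 15382 to 23063 cells passed the filters on UMIs, genes and mitochondrial RNA. Cells were gated by marker genes into macrophage, neutrophil, dendritic, cancer and other classes. Cells with markers of several classes, 3429 to 5380 per library, were set aside as mixed. In the order OE-Vector 1, OE-MLKL 1, OE-MLKL 2 and OE-MLKL 3, used for all values given as 4 in a row below, the macrophage gate held 2044, 2618, 2618 and 2818 cells and the neutrophil gate 6568, 4838, 7104 and 6647. The dendritic gate held 93, 38, 40 and 145 cells and the cancer gate 643, 4440, 4329 and 453. The labels were checked against further marker lists that the gates had not used. In macrophage-gated cells all 8 further macrophage markers were detected in at least 10% of the cells in every library, but 5 to 7 of 8 further neutrophil markers were too, with summed levels of 4962 to 7073 CPM (UMIs of a gene or list per 1000000 UMIs of the summed cells) for the macrophage list and 938 to 1242 CPM for the neutrophil list. The further dendritic list, which includes the antigen presentation genes Cd74 and H2-Aa, summed to 4892 to 12366 CPM there. In neutrophil-gated cells all 8 further neutrophil markers reached 10% of the cells, beside 0 to 3 of 8 macrophage markers. In dendritic-gated cells all 8 further dendritic markers did, beside 4 to 6 of 8 macrophage and 4 to 5 of 8 neutrophil markers. Their lists summed to 18502 to 22103 CPM (dendritic), 605 to 1657 CPM (macrophage) and 193 to 556 CPM (neutrophil). In cancer-gated cells the label held only in part: 2 to 4 of 11 further epithelial genes reached 10% of the cells, beside 2 to 7 of 8 macrophage, 4 to 5 of 8 neutrophil and 4 of 8 dendritic markers. The epithelial list summed to 145 to 428 CPM in these cells, the macrophage list to 183 to 242, the neutrophil list to 219 to 568 and the dendritic list to 125 to 740 CPM, and a gate built on the further epithelial genes found too few cancer cells to fit. The part of the other classes' markers in the results was not tested, and "cancer cells" below means the cells of that gate. Mlkl itself did not separate the labelled groups in cancer-gated cells, with 15.1, 8.63, 13.2 and 22.8 CPM. Whether 3′ counting reads the introduced construct is not stated, so OE-Vector and OE-MLKL stand for the labels. Between 73 and 134 cell barcodes were shared by any pair of libraries, at most 0.741% of the smaller one.

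Arg1 was a macrophage transcript in every tumour. Its level, as CPM of the cells summed per class and library, was 1638, 614, 1092 and 747 in macrophage-gated cells. The same value was 34.9, 8.42, 22.1 and 33.5 in neutrophil-gated cells, 17.6, 0, 13.3 and 12 in dendritic-gated cells and 7.03, 3.01, 5.67 and 12.6 in cancer-gated cells. The classes did not overlap between macrophages and the rest in any library. The dendritic values rest on 15, 0, 3 and 16 UMIs, too few to set the size of the dendritic difference below closely. In the edgeR quasi-likelihood fit with the library as a block, Arg1 was higher in macrophages than in neutrophils by 5.21 ± 0.29 on the log2 scale (SE, adjusted p = 6.25e-10), than in dendritic cells by 6.68 ± 0.39 (adjusted p = 3.04e-09) and than in cancer cells by 7.46 ± 0.33 (adjusted p = 1.26e-11). Expression was unevenly spread: the 10% of macrophages with the most Arg1 held 55.5% to 72.1% of its macrophage UMIs, and single cells reached 147 to 367 UMIs.

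Arg1 UMIs were also found in lymphocytes. Cells of the T and NK gate held Arg1 at 19.2, 2.96, 11.1 and 24.8 CPM, lowest in OE-MLKL 1 as in the neutrophils. Shares of cells with a UMI were also taken after thinning each cell to 1000 UMIs, which leaves out shallower cells: 4971, 1261, 2020 and 6037 neutrophil-gated cells and 937, 504, 601 and 686 T and NK cells were deep enough. Of these, 3.23%, 0.743%, 1.24% and 3.19% of neutrophils had an Arg1 UMI, beside 2.34%, 0.480%, 1.07% and 2.77% of T and NK cells (without thinning, 4.45%, 0.847%, 1.56% and 5.21% beside 8.54%, 1.36%, 4.22% and 8.87%). Thinned macrophages stood at 45.3%, 26.4%, 40.4% and 26.1%. Dendritic-gated cells stood at 1.67%, 0%, 0.808% and 1.08% and cancer-gated cells at 1.13%, 0.352%, 0.572% and 1.51%, below the T and NK share in every library; the 0 of OE-MLKL 1, from 38 cells, allows up to 12.9 CPM. Neutrophils lay above the T and NK gate in 4 of 4 libraries by thinned share and by CPM, a difference that was not tested, and the fit placed them above cancer cells by 2.25 ± 0.28 on the log2 scale (adjusted p = 1.67e-06). Median depth was 1221, 770, 812 and 1426 UMIs per neutrophil and 3558, 3602, 2795.5 and 3068 per T or NK cell. In barcodes of at most 100 UMIs, taken as free RNA, Arg1 stood at 236, 77.2, 116 and 138 CPM, and its part in the values of the other gates was not tested.

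Arg2, the mitochondrial arginase, lay instead in neutrophils. Neutrophil-gated cells held it at 228, 156, 106 and 124 CPM and macrophage-gated cells at 10.8, 12.5, 3.53 and 3.63 CPM. Dendritic-gated cells held 2 UMIs of Arg2 at most in any library, and cancer-gated cells stood at 1.24, 0.838, 1.26 and 4.85 CPM. No macrophage value reached any neutrophil value, and the neutrophil gate alone held 58.3% to 72.9% of all Arg2 UMIs in cells. In the fit, Arg2 was lower in macrophages than in neutrophils by 4.65 ± 0.39 on the log2 scale (log2 difference -4.65, adjusted p = 4.97e-08) and higher in neutrophils than in cancer cells by 7.02 ± 0.46 (adjusted p = 1.22e-09). The pair of arginase genes was therefore divided between the main myeloid classes, Arg1 in one and Arg2 in the other.

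Nos2 was shared by macrophages and neutrophils at low levels. Macrophage-gated cells held 75.4, 8.66, 11.7 and 7.51 CPM of Nos2, from 1305, 108, 166 and 149 UMIs. Neutrophil-gated cells held 11.1, 17.2, 10.9 and 4.11 CPM, from 105, 84, 75 and 48 UMIs. Macrophages held the higher value in 3 of 4 libraries and the lower one in OE-MLKL 1, and the difference of macrophages from neutrophils was not called (0.46 ± 0.39 on the log2 scale, adjusted p = 0.308). In both classes Nos2 stood above the T and NK gate, which had 1.55, 0, 0.427 and 1.80 CPM. In barcodes of at most 100 UMIs, Nos2 stood at 17.1, 3.84, 4.81 and 3.16 CPM. That lay above the neutrophil value in OE-Vector 1 and below it in the OE-MLKL libraries, and the part of free RNA was not tested. Against cancer cells, at 0.288 to 1.16 CPM, Nos2 was higher in macrophages by 5.52 ± 0.50 (adjusted p = 6.39e-08) and in neutrophils by 5.06 ± 0.52 (adjusted p = 2.07e-07).

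Slc7a2, the inducible arginine transporter, followed Arg1. Its level was 111, 49.4, 66.9 and 112 CPM in macrophages and 3.39, 3.90, 1.89 and 7.88 CPM in neutrophils. Cancer cells had 0.773 to 3.14 CPM, T and NK cells 0.423 to 5.04 CPM. Every macrophage value lay above every value of the other gates. In barcodes of at most 100 UMIs, Slc7a2 stood at 23.3, 10.9, 11.2 and 19.5 CPM. That lay above its neutrophil value and below its macrophage value in every library, and the part of free RNA was not tested. In the edgeR fit, Slc7a2 was higher in macrophages than in neutrophils by 4.09 ± 0.26 (adjusted p = 2.02e-09) and than in cancer cells by 5.85 ± 0.27 on the log2 scale (adjusted p = 1.89e-11). Dendritic-gated cells held 6, 0, 0 and 3 UMIs of Slc7a2. The fitted difference from them, 5.05 ± 0.45, rests on these counts, which were too low to test the gene in dendritic cells alone.

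Ass1, the citrulline-recycling enzyme, had its highest CPM of the 4 gates in dendritic-gated cells in 3 of 4 libraries. There it stood at 85.7, 0, 62.0 and 26.2 CPM from 73, 0, 14 and 35 UMIs. The 0 in OE-MLKL 1, from 38 cells, allows up to 12.9 CPM (3 UMIs, counting error only). Macrophages had 28.6, 5.05, 6.91 and 13.9 CPM of Ass1, neutrophils 3.07, 0.821, 1.02 and 1.03, cancer cells 12, 2.05, 3.18 and 4.42, and T and NK cells 27.2, 32.6, 48.3 and 16.2. The ranges of dendritic and macrophage values overlapped. In the fit, Ass1 was higher in dendritic cells than in macrophages by 1.49 (macrophage minus dendritic -1.49 ± 0.32 on the log2 scale, adjusted p = 0.00163) and than in cancer cells by 2.98 ± 0.34 (adjusted p = 1.54e-06).

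UMIs of the polyamine genes Odc1 and Sat1 were found in all gates. Odc1 stood at 94.7, 44.5, 66.7 and 132 CPM in macrophages, 52.6, 32.6, 37.6 and 48.9 in neutrophils, 127, 77.2, 102 and 108 in dendritic cells and 105, 110, 131 and 135 in cancer cells. T and NK cells had 283, 247, 302 and 305 CPM of Odc1, above every value of the 4 gates. Sat1 stood at 622, 676, 469 and 575 CPM in macrophages and 614, 509, 447 and 551 in neutrophils, ranges that overlap. It stood at 190, 223, 195 and 190 CPM in dendritic cells and 256, 257, 204 and 239 in cancer cells. In barcodes of at most 100 UMIs, Odc1 stood at 106, 92.8, 107 and 156 CPM, above its neutrophil and macrophage values in every library, and Sat1 at 335, 316, 245 and 344 CPM, above its dendritic and cancer values in every library. The part of free RNA in these levels was not tested. Sat1 was higher in macrophages than in dendritic cells by 1.60 ± 0.14 (adjusted p = 3.40e-07) and than in cancer cells by 1.43 ± 0.13 on the log2 scale (adjusted p = 8.49e-08). Its difference of macrophages from neutrophils was not called (-0.12 ± 0.13, adjusted p = 0.432). The fitted sign was negative although macrophage CPM lay above neutrophil CPM in every library.

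**Figure D1:**
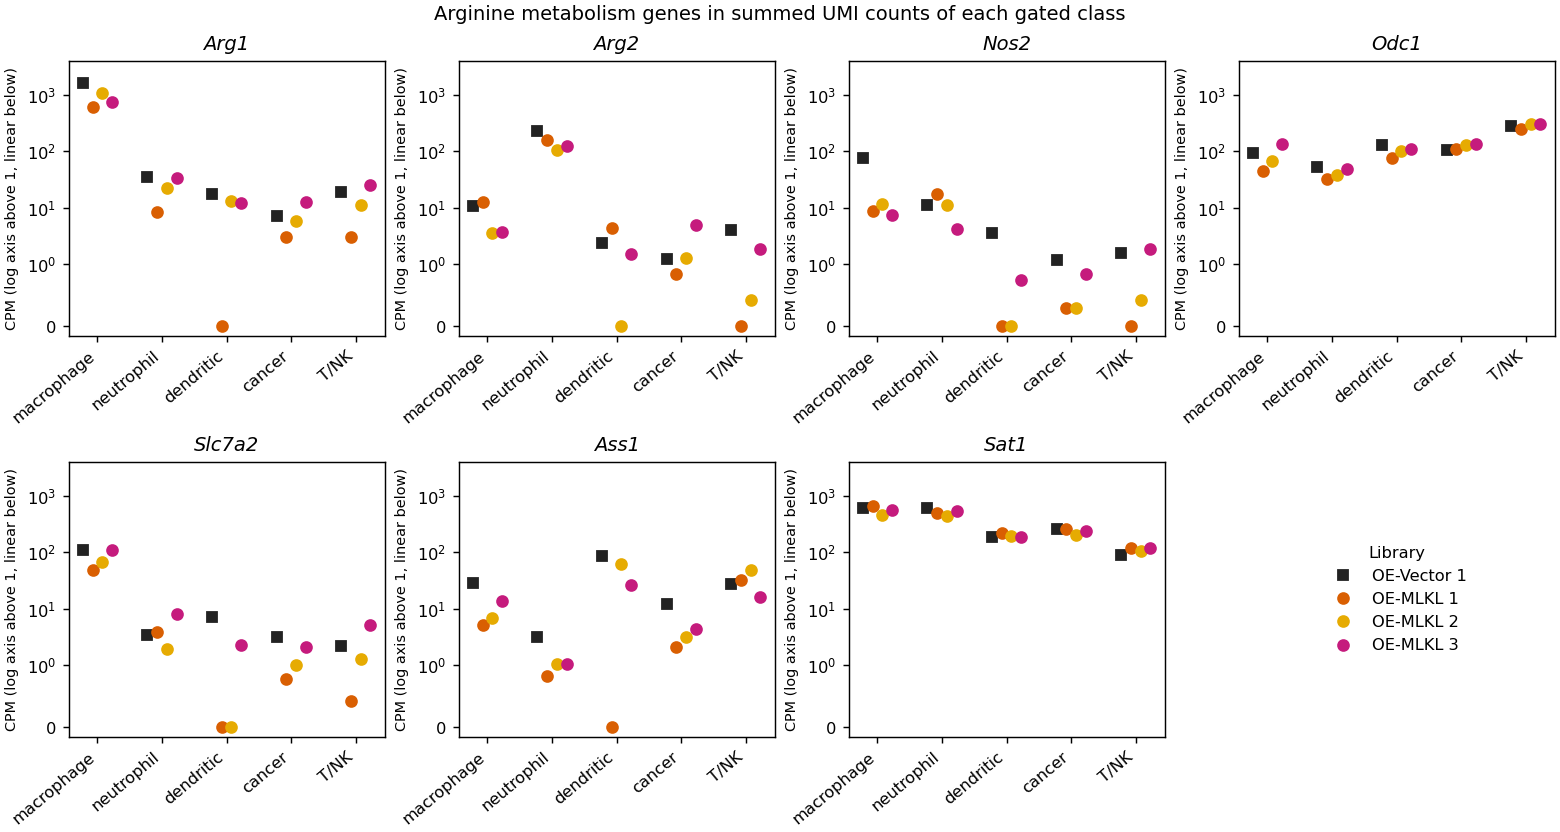
Each panel plots 1 gene, with the gated class on the x axis and CPM of the summed cells on the y axis (logarithmic above 1, linear below). The square is OE-Vector 1 and the circles are the 3 OE-MLKL libraries. Arg1 and Slc7a2 stand apart in macrophages, Arg2 stands apart in neutrophils, and OE-Vector 1 stands apart in Nos2 of macrophages.

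Over all 4 gates, large shares of the transcriptome differed, so a call alone says little about these genes. At adjusted p under 0.05 by edgeR, 67.7% of 13863 tested genes differed between macrophages and neutrophils, 34.1% between macrophages and dendritic cells and 65.8% between macrophages and cancer cells. The shares were 54.7% between neutrophils and dendritic cells, 79% between neutrophils and cancer cells and 52.1% between dendritic and cancer cells. Of the 7 genes, 5, 5, 7, 6, 7 and 1 were called in the same 6 comparisons. In dendritic cells Arg1, Arg2, Nos2 and Slc7a2 had at most 16 UMIs in a library, so calls of them against that gate rest on few counts. The median log2 difference of the 7 between macrophages and cancer cells was 2.37, beside -0.11 over all tested genes.

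Of 38 further genes of arginine uptake, nitric oxide, polyamine, proline, citrulline and creatine metabolism, 32 passed the count filter. Between macrophages and neutrophils 20 of them differed (13 higher and 7 lower in macrophages), where 67.7% of all tested genes did. Gatm, the first enzyme of creatine synthesis, which uses arginine, had a mean of 377 ± 256 CPM in macrophages and 11.9 ± 7.04 CPM in neutrophils (SD, n = 4 libraries). Paox, a polyamine oxidase, had 78.0 ± 23.0 CPM in macrophages and 9.18 ± 4.43 CPM in neutrophils, and Slc7a7, an exchanger that exports cationic amino acids, 38.7 ± 6.72 and 4.71 ± 1.78 CPM. Qdpr, which regenerates the tetrahydrobiopterin cofactor of nitric oxide synthase, was also higher in macrophages by 2.33 on the log2 scale. Gch1 and Pts, which make that cofactor, were lower in macrophages than in neutrophils (log2 differences -1.03 and -1.02), as was Smox, spermine oxidase (-1.09).

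Against cancer cells, 24 of the 32 differed, 7 higher and 17 lower in macrophages, where 65.8% of all tested genes differed. Genes of proline metabolism went in both directions. Pycr1, pyrroline-5-carboxylate reductase, and Aldh18a1, which starts proline synthesis from glutamate, were lower in macrophages (log2 differences -2.74 and -1.59), whereas Oat, ornithine aminotransferase, and Prodh, proline dehydrogenase, were higher (0.70 and 0.82). Cancer cells held more Ddah1, which breaks down asymmetric dimethylarginine, an inhibitor of nitric oxide synthase, at 26.6 ± 6.37 CPM beside 2.18 ± 0.973 CPM in macrophages (SD, n = 4). Slc7a1, the constitutive arginine transporter, stood at 56.2 ± 29.6 CPM in cancer cells and 17.4 ± 7.05 CPM in macrophages (log2 difference -1.51, adjusted p = 1.88e-07), so the arginine transporters Slc7a1 and Slc7a2 ran in opposite directions between these classes. Prmt1, an arginine methyltransferase, was lower in macrophages by a log2 difference of -1.47.

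Across the 16 sums of 4 gates in 4 libraries, the genes whose log2(CPM + 1) was most like that of Arg1 were Ms4a7 (Pearson's r = 0.980), Cd93 (0.977) and C1qb (0.976), of which Ms4a7 and C1qb belong to the macrophage gate. For Slc7a2 they were Hpgds (0.975), Nxpe5 (0.969) and Col14a1 (0.967), of which Col14a1 belongs to the marker list of the stromal cell gate. For Arg2 they were Armc3 (0.964), Gm16556 (0.964) and Nfe2 (0.964), and for Nos2 F10 (0.908), Tcirg1 (0.890) and Tcn2 (0.887). Odc1 was most like Top2a (0.937), Tpx2 (0.928) and Caprin1 (0.927), of which Top2a and Tpx2 are proliferation genes. Ass1 was most like Rfwd3 (0.933), Rmi2 (0.912) and Galnt12 (0.892), and Sat1 like Pla2g7 (0.978), Aatk (0.972) and Hacd4 (0.967). These values describe 16 sums that share 4 libraries, out of 10507 genes compared.

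Most macrophages with a Nos2 UMI had an Arg1 UMI as well. Any single UMI counts as detection here, and the part of free RNA, with Arg1 at the 77.2 to 236 CPM given above, in these shares was not tested. In OE-Vector 1, 255 macrophages had both transcripts, 1262 had Arg1 without Nos2, 8 had Nos2 without Arg1 and 519 had neither. In OE-MLKL 1 these counts were 39, 1287, 2 and 1290, in OE-MLKL 2 they were 45, 1828, 12 and 733, and in OE-MLKL 3 they were 64, 1586, 13 and 1155. Arg1 was thus detected in 97.0%, 95.1%, 78.9% and 83.1% of the Nos2-positive macrophages, beside 70.9%, 49.9%, 71.4% and 57.9% of those without Nos2. The share with Arg1 was the higher one among Nos2-positive cells in 4 of 4 libraries.

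The odds ratio of detecting both was 13.1 in OE-Vector 1 (exact 95% interval 6.48 to 30.9), 19.5 in OE-MLKL 1 (5.04 to 167), 1.5 in OE-MLKL 2 (0.777 to 3.14) and 3.58 in OE-MLKL 3 (1.94 to 7.13). The intervals cover counting error only, and that of OE-MLKL 2 includes 1. With cells thinned to the same depth of 1000 UMIs, of which 1986, 2590, 2589 and 2715 macrophages had enough, the odds ratios were 12.7, 11.1, 3.52 and 5.36, a mean of 8.18 ± 4.43 (SD, n = 4). The OE-Vector library had the highest thinned value, but its difference from the 3 OE-MLKL libraries gave p = 0.5 in the two-sided exact permutation test, and OE-MLKL 1 lay close to it. Among neutrophils only 8, 0, 4 and 4 cells held both transcripts, against 3.56, 0.525, 0.734 and 1.98 expected from the separate shares. In the cancer gate 2, 2, 2 and 3 cells held both, against 1.46, 0.638, 0.898 and 0.512 expected, and no dendritic-gated cell did.

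**Figure D2:**
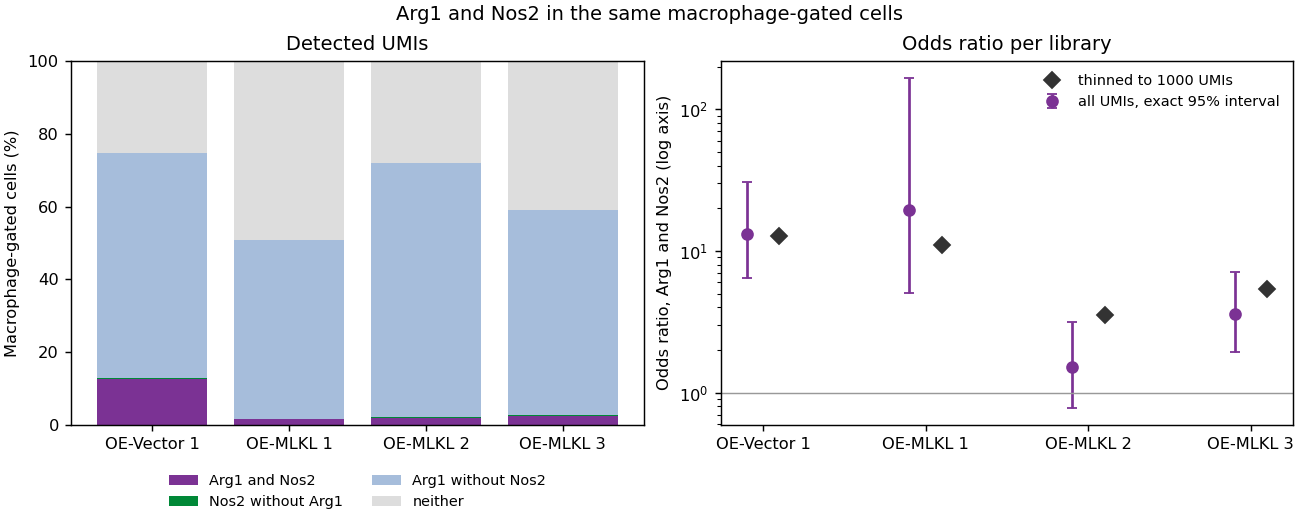
Left, the share of macrophage-gated cells (%) in each library with UMIs of both genes, of Arg1 alone, of Nos2 alone or of neither. Right, the odds ratio of joint detection on a log axis, with its exact 95% interval over all UMIs (circles) and after thinning to 1000 UMIs (diamonds); the Nos2-without-Arg1 band is 2 to 13 cells per library.

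Macrophages with both transcripts also held more of the arginine transporter. This contrast, of cells with Arg1 and Nos2 against cells with Arg1 alone, was chosen after the Nos2-only cells were seen to be few. Slc7a2 stood at 248, 245, 384 and 881 CPM in the cells with both, at 113, 63.3, 73.3 and 134 CPM in those with Arg1 alone and at 10.3, 22.4, 15.1 and 16 CPM in those with neither. The 3 states did not overlap, and the order was the same in 4 of 4 libraries. Ass1 stood at 40.7, 21.5, 35.8 and 56.5 CPM with both and at 25.8, 4.76, 5.83 and 13.8 CPM with Arg1 alone, higher with both in 4 of 4 libraries. In the few Nos2-only cells it stood at 47.2, 0, 72.5 and 30.1 CPM, from 3, 0, 4 and 3 UMIs. That lay above the value with both in OE-Vector 1 and OE-MLKL 2.

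In the edgeR fit with the library as a block, in which 12.1% of 11118 tested genes were called, Slc7a2 was higher with both transcripts by 2.20 ± 0.18 on the log2 scale (adjusted p = 4.61e-08) and Ass1 by 1.66 ± 0.29 (adjusted p = 0.000426). Arg2 (0.96 ± 0.40, adjusted p = 0.133), Sat1 (0.21 ± 0.12, adjusted p = 0.321) and Odc1 (0.04 ± 0.16, adjusted p = 0.925) were not called. Arg2 was called without OE-MLKL 1 (1.27, adjusted p = 0.0371) and without OE-MLKL 3 (1.13, adjusted p = 0.034), and without OE-Vector 1 its difference was 0.12 (adjusted p = 0.968). The cells were chosen by detection of Arg1 and Nos2, so these genes were not tested here. Arg1 itself stood at 4907, 2763, 4487 and 3918 CPM with both transcripts and at 1454, 1012, 1326 and 1043 CPM with Arg1 alone, so the contrast is also one of Arg1 level, and the part of that level in the Slc7a2 and Ass1 differences was not tested. Median depth was 5550 to 8556 UMIs with both transcripts and 4747 to 8693 with Arg1 alone. Doublets of macrophages were not removed, and doublets with another class stay where its markers are within the limit of the gate.

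Of the further pathway genes, 8 of 29 tested were called in this contrast, 4 in each direction, where 12.1% of all tested genes were called. Gch1, the first enzyme of tetrahydrobiopterin synthesis, had 49.2 ± 9.32 CPM with both transcripts and 21.3 ± 1.56 CPM with Arg1 alone (SD, n = 4; log2 difference 1.43, adjusted p = 3.82e-05). Smox, Sms (spermine synthase) and Azin1, an inhibitor of the antizymes that degrade ornithine decarboxylase, were also higher, by 1.10, 0.77 and 0.66 on the log2 scale. Paox had 28.8 ± 14.6 CPM with both and 79.7 ± 19.4 CPM with Arg1 alone (log2 difference -1.36, adjusted p = 0.000112). Slc7a7, Pts and Gatm were lower as well, with differences of -0.97, -0.66 and -0.52.

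The planned contrast of Arg1-only against Nos2-only macrophages rested on 35 Nos2-only cells in all, 2 of them in OE-MLKL 1. Slc7a2 was higher with Arg1 by 2.49 ± 0.60 on the log2 scale (adjusted p = 0.00853), where 0.829% of 10373 tested genes were called. The median log2 difference over all tested genes was 0.35. The Nos2-only levels of Slc7a2 were 0, 116, 54.3 and 10.0 CPM, from 0, 1, 3 and 1 UMIs, and overlapped those with Arg1 alone. In OE-MLKL 1 the Nos2-only level lay above the 63.3 CPM with Arg1 alone. Ass1, Odc1, Sat1 and Arg2 were not called.

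**Figure D3:**
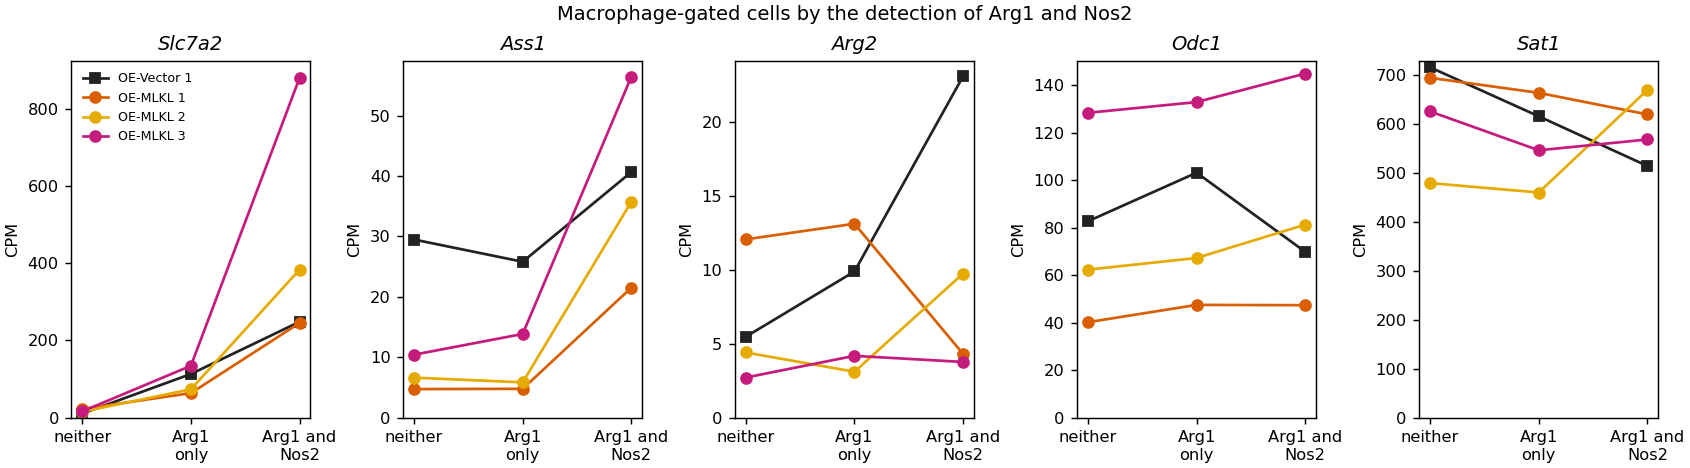
Lines join the CPM values (y axis, from 0) of 1 library across macrophages with neither transcript, with Arg1 alone and with Arg1 and Nos2; the square marks OE-Vector 1. Among the states drawn, Slc7a2 and Ass1 are highest with both transcripts in all 4 libraries, and the lines of Arg2, Odc1 and Sat1 cross or stay flat.

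Between OE-MLKL and OE-Vector, macrophage Nos2 had the largest fitted log2 fold change among the member genes tested in the 4 gates. OE-Vector 1 had 75.4 CPM and the OE-MLKL libraries 8.66, 11.7 and 7.51 CPM, a mean of 9.29 ± 2.17 (SD, n = 3), so that OE-Vector 1 was 8.71, 6.44 and 10.0 times each of them. Median depth was 8009.5, 4154.5, 4841.5 and 6869 UMIs per macrophage-gated cell, highest in OE-Vector 1. Nos2 UMIs were found in 12.9% of OE-Vector macrophages and in 1.57%, 2.18% and 2.73% of the OE-MLKL ones, and after thinning to 1000 UMIs in 4.87%, 0.552%, 0.785% and 0.624%. All 3 OE-MLKL values were thus below that of OE-Vector 1. The log2 fold change was -3.14 ± 0.30 (SE; unadjusted p = 2.19e-05), and it missed the threshold after adjustment (adjusted p = 0.0851 by edgeR), with the exact permutation p = 0.25, the smallest that 1 against 3 allows. Over 15 alternatives the log2 fold change was between -3.34 and -2.59, and it passed in 6 of them. Each of the 3 fits that left out an OE-MLKL library was among these 6. Those fits also called more genes over the whole transcriptome, and they have fewer libraries behind their spread. Free RNA in barcodes of at most 100 UMIs moved in the same direction, with Nos2 at 17.1, 3.84, 4.81 and 3.16 CPM, and its part in the result was not tested. The T and NK gate had 1.55, 0, 0.427 and 1.80 CPM of Nos2.

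Arg1, Ass1 and Slc7a2 of macrophages were not called either. The Arg1 level was 1638 CPM for OE-Vector 1 and averaged 818 ± 247 CPM over OE-MLKL (SD, n = 3), without overlap (log2 fold change -1.13 ± 0.40, adjusted p = 0.799). Ass1 stood at 28.6 beside 8.61 ± 4.64 CPM, also without overlap (-1.86 ± 0.47, adjusted p = 0.680). Slc7a2 reached 112 CPM in OE-MLKL 3, above the 111 CPM of OE-Vector 1 (-0.69 ± 0.41, adjusted p = 0.848). Without OE-MLKL 3 both Ass1 (-2.35, adjusted p = 0.000862) and Slc7a2 (-1.03, adjusted p = 0.0486) were called, in a fit that called 3.84% of genes. Arg2 (-0.83), Odc1 (-0.37) and Sat1 (-0.24) of macrophages had OE-Vector values within the OE-MLKL range.

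All 7 log2 fold changes in macrophages were negative, with a median of -0.83 beside 0.05 over all genes. The fit called 0% of 14025 genes (842 had an unadjusted p under 0.05), limma-voom called 0 and DESeq2 called 77, or 0.549%. Of the 7 genes, 3 had their OE-Vector CPM above every OE-MLKL library (Arg1, Nos2 and Ass1), where 17.7% of genes with a mean of at least 1 CPM did.

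In neutrophils, Arg2 had the lowest unadjusted p of the 7 genes. The OE-Vector 1 level was 228 CPM and the OE-MLKL mean 129 ± 25.4 CPM (SD, n = 3), without overlap (-1.10 ± 0.34, unadjusted p = 0.0165, adjusted p = 0.514). Nos2 of neutrophils had its OE-Vector value within the OE-MLKL range (-0.35 ± 0.71, adjusted p = 0.893). Neutrophil Ass1 rested on 29 UMIs of OE-Vector 1 and on 4, 7 and 12 of the OE-MLKL libraries (-1.92 ± 0.60, adjusted p = 0.516). Sat1 (-0.56), Odc1 (-0.68), Arg1 (-0.97) and Slc7a2, the only one with a positive value (0.18), were not called. The neutrophil fit called 0% of 13350 genes (1208 at an unadjusted p under 0.05; 98 by DESeq2, 0 by limma-voom), and 5 of the 7 genes had their OE-Vector CPM above every OE-MLKL library, against 15.9% of genes.

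In dendritic cells Arg1, Arg2, Nos2 and Slc7a2 were too low to test. Ass1 had a log2 fold change of -1.67 ± 0.54 (unadjusted p = 0.0038, adjusted p = 0.406 by edgeR). Without OE-MLKL 2 it was -2.28 and was called, in a fit that called more genes in all. Odc1 (-0.43) and Sat1 (0.06) were not called, where 0.0949% of 7379 genes were. In cancer cells none of the 7 was called, nor was any other gene (0% of 15243 by edgeR, 818 at an unadjusted p under 0.05; 46 by DESeq2, 0 by limma-voom). Ass1 had the largest fitted fold change there, at 12 CPM beside 3.22 ± 1.19 (-2.09 ± 0.44, unadjusted p = 0.00261, adjusted p = 0.742). Without OE-MLKL 3 it was called, in a fit that called more genes in all. Odc1 of cancer cells was 105 CPM for OE-Vector 1 and averaged 126 ± 13.6 CPM over OE-MLKL (0.12 ± 0.28, adjusted p = 0.976). The main gate kept 643 and 453 cancer cells of OE-Vector 1 and OE-MLKL 3; a gate by marker UMIs, added after this was seen, kept 2610 and 2720, and under it Ass1 differed by -2.08 (adjusted p = 0.901). The Ass1 fold change was thus negative in all 4 gates and, with all libraries, called in none of them. Free RNA moved in the same direction, with Ass1 at 14.5, 3.72, 4.81 and 8.17 CPM, above the cancer and neutrophil values of every library, and its part was not tested. T and NK cells of OE-MLKL 1 and OE-MLKL 2 had more Ass1 than those of OE-Vector 1, and those of OE-MLKL 3 had less.

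The difference of the OE-MLKL effect between classes was tested directly. For Nos2 the effect in macrophages minus that in neutrophils was -2.61 ± 0.56 on the log2 scale (unadjusted p = 0.000423, adjusted p = 0.217), in a fit that called 0.0144% of 13863 genes. It was called without OE-MLKL 3 (-2.99) and under the stricter gate (-2.87). The shares of all genes called in those fits are not given here. With all libraries, no other member was called in the differences from neutrophils, from dendritic cells (0.00721% of genes called) or from cancer cells (0%). Without OE-MLKL 3, Odc1 was called in the difference from cancer cells (-1.05), again without the share of all genes called given here. For Arg1 the macrophage effect differed from the neutrophil effect by 0.07 ± 0.57 (adjusted p = 1 by edgeR).

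**Figure D4:**
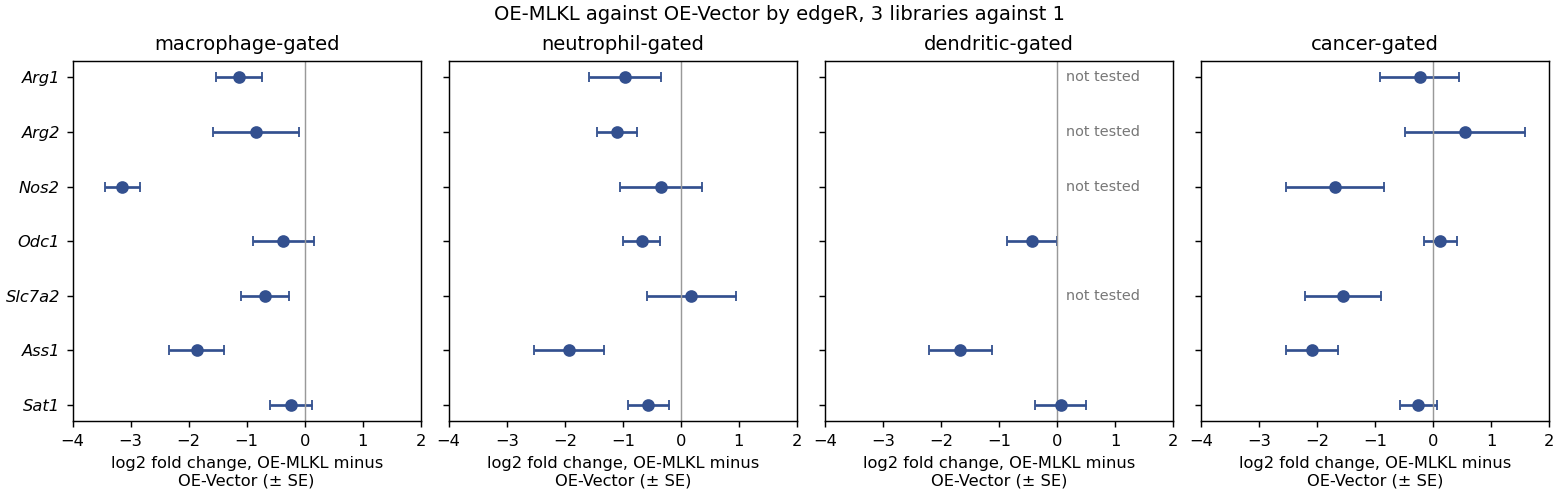
Points are edgeR log2 fold changes of OE-MLKL minus OE-Vector (x axis) with bars of 1 SE for each gene (y axis) in each gated class; "not tested" marks genes under the count filter. Macrophage Nos2 lies farthest from 0, at -3.14, and Ass1 lies below 0 in all 4 classes, with no gene past an adjusted p of 0.05.

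The 38 further pathway genes gave no call between OE-MLKL and OE-Vector: 32 were tested in macrophages, 32 in neutrophils, 22 in dendritic cells and 35 in cancer cells. Their median log2 fold change in macrophages was -0.07. Smox, spermine oxidase, had the lowest p among them there, with a log2 fold change of -1.32 ± 0.33 (adjusted p = 0.657 by edgeR).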

How the data were processed

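Tumour cells of OE-Vector and OE-MLKL KPC tumours were profiled by 10x Genomics single-cell RNA-seq, with each library from 1 primary tumour per the study's methods. The deposited matrices hold raw UMI counts per gene and barcode; per the file headers the authors made them with Cell Ranger 7.1.0, whereas the submitters' processing notes name Cell Ranger 2.1.1 and mm10, and the study's methods name yet another Cell Ranger version. Whether intronic reads were counted is not given in the sources used here. Matrices of 4 libraries of 6 were analysed.

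Cells had at least 500 UMIs, over 200 genes, under 10% mitochondrial UMIs and at most 5% haemoglobin UMIs. A cell was gated to the class with the highest share of its marker list detected, with at least 3 markers and no other class above 50% of that share; other cells were mixed or ungated. No doublet caller was run. Doublets of different classes fall in the mixed cells only where the second class passes that 50% limit. Otherwise they stay in the gate of the leading class, as doublets of 1 class do. Counts were summed per class and library and tested with edgeR 4.0.16 (quasi-likelihood, TMM, filterByExpr, Benjamini-Hochberg over all genes; R 4.3.3). Classes and macrophage states were compared with library as a block. Thinned shares, over cells with at least 1000 UMIs, were computed exactly from the hypergeometric distribution. DESeq2 1.42.0 and limma 3.58.1 were alternatives, beside other gates, filters and scalings and leaving out each library. The fits were also run on simulated counts with the means and library sizes of these data and a set spread. That spread was the same for every gene and was not estimated from these libraries. In the group fits, 41%, 42%, 40% and 41% of simulated 4-fold changes were recovered in macrophages, neutrophils, dendritic and cancer cells. For 16-fold changes the shares were 95%, 94%, 85% and 99%. Unchanged genes called in the same runs numbered 0, 10, 4 and 9. Because the spread was set, these shares do not give the power of the fits in these data. Standard errors follow from the fold change and the F statistic. The members and lists were chosen with earlier results of these data known. Named were the 7 members, pathway genes past an adjusted p of 0.05 (at most 10 per contrast by size) and the 3 genes most like each member; Smox between the groups, and Oat and Prodh between macrophages and cancer cells, were named after their values were seen. Intervals and floors (3 UMIs) cover counting error only.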

Additional observations from a re-analysis of the deposited data

Results flagged for a closer look

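Cells with markers of several classes entered no comparison, yet they held Arg1 and Nos2 well above the limit of 3 UMIs that a count of 0 allows. Of all Arg1 UMIs in cells, mixed cells held 24.3% in OE-Vector 1, 23.5% in OE-MLKL 1, 21.2% in OE-MLKL 2 and 43.9% in OE-MLKL 3. Of all Nos2 UMIs they held 32.1% in OE-Vector 1, 24.8% in OE-MLKL 1, 25.2% in OE-MLKL 2 and 60.1% in OE-MLKL 3. OE-MLKL 3 had the highest share for both genes. With the gate by marker UMIs, which sets fewer cells aside, the macrophage Nos2 log2 fold change was -2.66 (adjusted p = 0.174 by edgeR).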

How the results depend on the processing

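Counts of genes called between OE-MLKL and OE-Vector depended on the setting, and the cause was not tested. In macrophages, 0 became 77 with DESeq2, 42 with no filter, 5 with the stricter gate, 3 without the 5% deepest cells and 8 to 520 when 1 OE-MLKL library was left out. In neutrophils, 0 became 98 with DESeq2, 16 with no filter and 1 to 1059 on leaving out a library. In dendritic cells, 7 became 0 with DESeq2 (102 at an unadjusted p under 0.05), with limma-voom (602) or with a mean of at least 20 UMIs, 33 with no filter, 16 with the stricter gate, 23 with the gate by marker UMIs and 19 to 113 on leaving out a library. In cancer cells, 0 became 46 with DESeq2, 5 with no filter, 6 with the stricter gate, 1 with the gate by marker UMIs and 9 to 468 on leaving out a library. The highest counts came without OE-MLKL 3. Members called between macrophages and dendritic cells went from 5 to 3 with the stricter gate. Smaller moves were from 6 to between 4 (other markers) and 7 (without OE-Vector 1) for neutrophils against dendritic cells, from 7 to 6 for macrophages against cancer cells and from 5 to 6 for macrophages against neutrophils. Between dendritic and cancer cells they went from 1 to 2 with limma-voom and 1 to 2 on leaving out a library. Effects differing from neutrophils went from 0 to 1 with the stricter gate and ranged from 0 to 1 on leaving out a library, as did those differing from cancer cells. The mean thinned odds ratio of Arg1 and Nos2 was 6.66 to 9.73 over 12 alternatives, 8.32 at 2000 UMIs and 9.43 without thinning.

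Fold changes between the groups turned sign for these genes, none called in any setting. In neutrophils, Nos2 was 0.064 without OE-MLKL 3 (-0.84 to 0.064 on leaving out a library), Odc1 was 0.15 with the other markers, and Slc7a2 was -0.52 without OE-MLKL 3 (-0.52 to 0.53), -0.34 with the stricter gate, -0.35 with the other markers, -0.25 without the deepest cells and -0.17 with the gate by marker UMIs. Dendritic Sat1 was -0.091 without OE-MLKL 1 (-0.091 to 0.20). In cancer cells, Arg1 was 0.13 without OE-MLKL 1 (-0.73 to 0.13), and Arg2 was -0.15 with limma-voom, -0.28 without OE-MLKL 3 (-0.28 to 0.97) and -0.60 with the gate by marker UMIs. Between macrophages with both transcripts and with Arg1 alone, Odc1 was -0.12 by library size alone, -0.059 without OE-MLKL 2, -0.050 without OE-MLKL 3 (-0.059 to 0.27), -0.064 with the stricter gate and -0.13 with the other markers, and Sat1 was -0.12 with the stricter gate and -0.20 with the other markers. Slc7a2 and Ass1 stayed called in that contrast in 12 of 12 alternatives. Of the single-gene values, 377 kept direction and call and 12 gained a call.

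Cancer cells could not be fitted with the other markers. No paired analysis was possible because the groups share only replicate number 1 among the matrices. Dendritic values rest on 38 to 145 cells per library, and neutrophil Ass1 on 4 to 29 UMIs.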
